A study of Homo sapiens with 12 samples.

Results

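H3K27ac peaks were described at 8 gastrointestinal marker genes of the classical pancreatic tumour subtype: the trefoil factors TFF1, TFF2 and TFF3, AGR2, CEACAM5, CEACAM6, CLDN18 and TSPAN8. The genes lie in 5 windows of the hg19 build, and every peak that shared at least 1 bp with a window was taken. The windows were chr21:43720000-43800000 for TFF3, TFF2 and TFF1, chr7:16820000-16880000 for AGR2, chr19:42200000-42285000 for CEACAM5 and CEACAM6, chr3:137710000-137760000 for CLDN18 and chr12:71510000-71560000 for TSPAN8. They held 58 of the 190767 peaks in the 6 lists, and 30 of the 58994 regions that result from merging peaks of all lists that touch. Peaks were taken by position, whatever their values.

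The samples were 3 human pancreatic ductal adenocarcinoma lines, BxPC3, Panc327 and SUIT2, all untreated and grown under standard conditions. The labels describe Panc327 no further than as cells of human pancreatic ductal adenocarcinoma. Each line gave 2 H3K27ac ChIP libraries and 2 input libraries, 12 samples in all, and each ChIP library had its own peak list. BxPC3 comes from a primary tumour and SUIT2 from a liver metastasis, and each established line stands for 1 tumour. The labels do not say whether replicates were separate cultures, so the spread between them may be technical. Nothing was treated and no SIRT6-depleted cells entered, although the study's title concerns SIRT6 and the integrated stress response.

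H3K27ac is an acetylation of histone H3 that marks active promoters and enhancers, so a peak reports chromatin state and not the amount of RNA or protein. Pancreatic tumours are commonly divided by expression into a classical subtype, which keeps epithelial and gastrointestinal genes, and a basal-like subtype, which has lost much of that programme. TFF1, TFF2 and TFF3 are small secreted peptides that protect mucosal surfaces, TFF1 and TFF2 mostly in the stomach and TFF3 mostly in the intestine. AGR2 is a protein disulphide isomerase of the endoplasmic reticulum that helps mucins fold. CEACAM5, the carcinoembryonic antigen used as a serum tumour marker, and CEACAM6 are adhesion molecules anchored to the cell surface. CLDN18 is a tight junction claudin with a stomach and a lung isoform made from separate starts, and TSPAN8 is a tetraspanin of the plasma membrane.

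The stretches just before the starts of AGR2, CEACAM5, CEACAM6 and TSPAN8 are shown because their windows held peaks that set the lines apart. The trefoil window held such peaks too, but no stretch was at hand for TFF1, TFF2 or TFF3. The printed stretches come from RefSeq on the GRCh38.p14 build, as 250 bases before the annotated start, read 5′ to 3′ along the gene. That build is not the one of the peaks, so these positions cannot be set against peak positions, and no annotation on hg19 was used here to place a peak on a promoter, exon or intron. The AGR2 stretch is chr7:16805000-16805249 on the minus strand, that of CEACAM5 chr19:41708376-41708625 on the plus strand, that of CEACAM6 chr19:41755280-41755529 on the plus strand, and that of TSPAN8 chr12:71158000-71158249 on the minus strand, for 1 of its 2 starts. Capitals mark matches, on either strand, to 6 short motifs of transcription factors that are active in gut and pancreatic epithelium or at many promoters. The letters TGTTTAC stand for forkhead factors of the FOXA family. GATA factors were searched with AGATAA, and the hepatocyte nuclear factor HNF1 with GTTAAT. The stress- and growth-responsive factor AP-1 was searched with TGANTCA. The E-box of basic helix-loop-helix factors was searched with CACGTG, and the GC-rich motif of the SP and KLF families with GGGCGG. No motif contains another.
AGR2: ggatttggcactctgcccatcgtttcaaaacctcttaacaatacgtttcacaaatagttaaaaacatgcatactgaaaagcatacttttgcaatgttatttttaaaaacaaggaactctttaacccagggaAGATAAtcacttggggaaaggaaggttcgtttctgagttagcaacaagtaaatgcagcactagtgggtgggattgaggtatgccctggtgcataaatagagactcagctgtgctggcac
CEACAM5: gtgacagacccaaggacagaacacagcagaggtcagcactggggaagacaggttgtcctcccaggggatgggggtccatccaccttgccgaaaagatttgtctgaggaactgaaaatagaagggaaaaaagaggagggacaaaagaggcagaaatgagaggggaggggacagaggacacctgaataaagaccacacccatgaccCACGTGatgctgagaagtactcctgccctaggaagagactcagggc
CEACAM6: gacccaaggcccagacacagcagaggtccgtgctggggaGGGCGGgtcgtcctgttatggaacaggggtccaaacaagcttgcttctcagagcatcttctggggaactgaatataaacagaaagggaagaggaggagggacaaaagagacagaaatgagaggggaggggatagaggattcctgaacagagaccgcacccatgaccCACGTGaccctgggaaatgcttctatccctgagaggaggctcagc
TSPAN8: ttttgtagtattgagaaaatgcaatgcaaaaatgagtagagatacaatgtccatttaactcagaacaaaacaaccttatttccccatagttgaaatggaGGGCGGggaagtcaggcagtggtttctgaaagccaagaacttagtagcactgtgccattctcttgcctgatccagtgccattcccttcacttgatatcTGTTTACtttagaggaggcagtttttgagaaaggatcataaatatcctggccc

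The table held 5 of the 8 members, with 7 starts. AGR2 had 1 GATA match, which began 119 bases before its start. CEACAM5 and CEACAM6 each had an E-box match, which began 46 bases before the start in CEACAM5 and 45 in CEACAM6. Aligned with gaps allowed, their stretches were identical at 190 bases, which is 76% of the stretch length of 250. By the same measure, the other pairs among the 4 printed stretches were identical at 48.4 to 51.2%. CEACAM6 also had an SP/KLF match 211 bases before its start. TSPAN8 had a FOXA match 53 bases and an SP/KLF match 151 bases before the start shown, and the stretch before its other start, which overlaps it, held the same FOXA match and 3 HNF1 matches. CLDN18 had FOXA, GATA and HNF1 matches before 1 of its starts and none of the 6 motifs before the other. Among all 35116 RefSeq stretches of the same length, FOXA was found in 2.98%, GATA in 9.17%, HNF1 in 6.23%, AP-1 in 6.57%, the E-box in 6.34% and SP/KLF in 42.6%. A match is a run of letters and not a shown binding site.

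BxPC3 had H3K27ac peaks in 4 of the 5 windows and carried the only peaks in the trefoil and CEACAM windows. The AGR2 and TSPAN8 windows had peaks in both BxPC3 libraries too. SUIT2 had peaks in the TSPAN8 window alone, the main one a domain over 15 kb wide with a fold above 100. Panc327 held 1 peak in replicate 1, at AGR2, and 3 in replicate 2, of which 2 were at AGR2 and 1 at TSPAN8. The CLDN18 window held no peak in any of the 6 libraries.

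Both libraries held a peak in 4 of 5 windows in BxPC3, in 1 of 5 in Panc327 and in 1 of 5 in SUIT2. The background was taken from tiles of the genome as wide as the windows, 80 kb for the trefoil factors, 60 kb for AGR2, 85 kb for CEACAM5 and CEACAM6 and 50 kb for CLDN18 and TSPAN8. Both BxPC3 libraries held a peak in 36.7% of 80-kb tiles, 31.6% of 60-kb tiles, 37.8% of 85-kb tiles and 28.4% of 50-kb tiles. For the Panc327 pair the shares were 27.8, 23.6, 28.5 and 21% in the same order of widths, and for the SUIT2 pair 34.4, 29.5, 35.2 and 26.5%. The BxPC3 count lay above its tile share, and the Panc327 and SUIT2 counts of 1 in 5 lay near theirs. The tiles were laid without regard to genes, while the windows were set at genes and chosen with earlier results known. Tiles and windows are therefore not like for like. Without Panc327 replicate 1, 2 windows were marked in Panc327. No window had a peak in all 6 libraries, against 23.2, 19.2, 23.9 and 16.7% of tiles.

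Both BxPC3 libraries covered more bases than every other library in 3 windows, those of the trefoil factors, AGR2 and the CEACAM genes, which happened in 11.8, 10.3, 12.3 and 9.4% of the tiles of the 4 widths. The SUIT2 pair did so in 1 window, that of TSPAN8, against 17.7, 15.5, 18.1 and 14.3% of tiles. The Panc327 pair did so in 0 windows, against 4.91, 4.51, 4.93 and 4.16% of tiles.

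**Figure D1:**
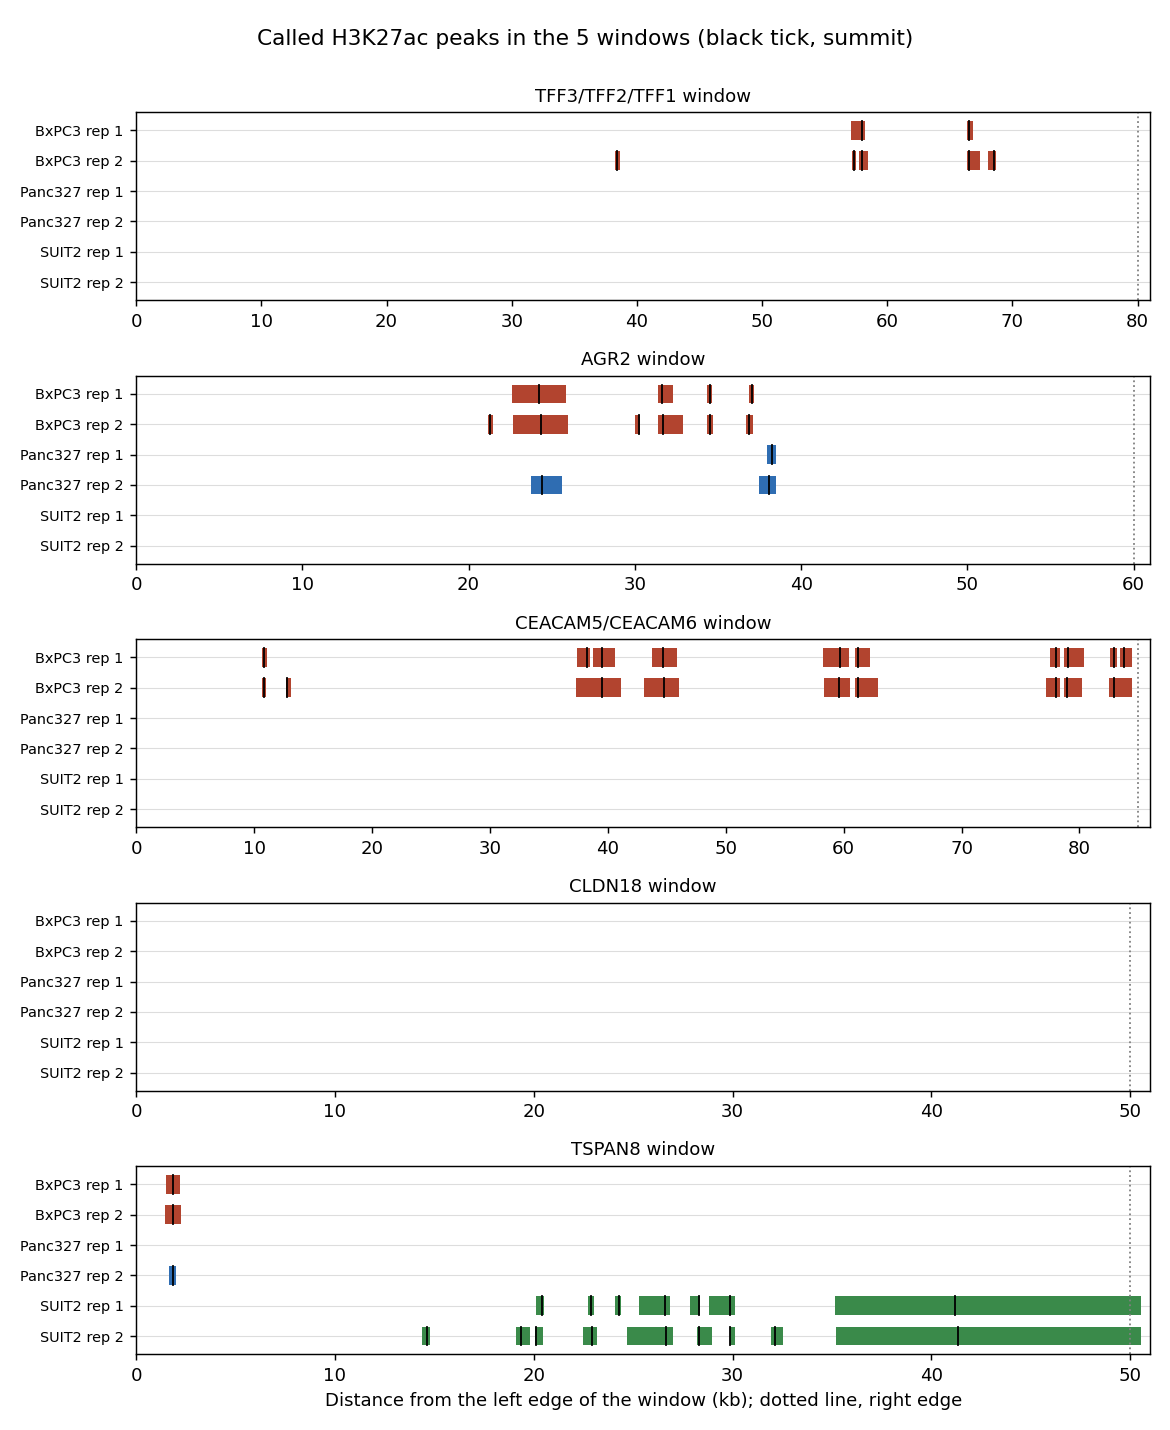
Called H3K27ac peaks in each window, with the distance from the left edge of the window in kb on the horizontal axis and 1 row per library. Bars are peaks and black ticks their summits. BxPC3 peaks fill the CEACAM5/CEACAM6 panel, the wide SUIT2 domain stands at the right of the TSPAN8 panel, and the CLDN18 panel is empty.

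Of the 30 merged regions, 13 were called in both BxPC3 libraries and in no library of another line, which is 43.3% of them, against 12.9% of all merged regions. Those 13 lay in 3 windows, 8 at CEACAM5 and CEACAM6, 3 at AGR2 and 2 at the trefoil factors, and neighbours in 1 locus are not independent. SUIT2 alone held 5 of the 30, all in the TSPAN8 window, which is 16.7% of them against 13% of all merged regions. Panc327 alone held 1, at AGR2, which is 3.33% against 5.79%. In all, 15 of the 30 were marked in BxPC3 (50%, against 49.7% of all merged regions). Marked in Panc327 was 1 (3.33%, against 33.7%), and in SUIT2 5 (16.7%, against 45.6%). Both libraries of no line called the other 9. The share marked in BxPC3, 50%, was that of the background, and what differed was how few of these regions the other lines held. Each region counts as 1 whatever its width, and covered bases gave another picture for SUIT2. Over the 5 windows BxPC3 covered 20167 and 26394 bp, and SUIT2 19250 and 20894 bp, all at TSPAN8. Panc327 covered 560 and 3170 bp. None of the 30 was called in all 6 libraries, against 21.6% of all merged regions. The SUIT2 count was the least steady: at a −log10 q of at least 20 only 1 SUIT2-only region was left, and without SUIT2 replicate 1 there were 9.

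The trefoil window was marked in BxPC3 alone. Its strongest peaks had lower fold and −log10 q than those of BxPC3 in the AGR2, CEACAM and TSPAN8 windows. No peak was assigned to TFF1, TFF2 or TFF3 singly. TFF3, TFF2 and TFF1 follow each other in that order along chromosome 21, between ABCG1 and TMPRSS3. BxPC3 had 2 peaks covering 1600 bp in replicate 1 and 5 peaks covering 3116 bp in replicate 2, while Panc327 and SUIT2 had 0 in each of their 4 libraries. The BxPC3 libraries thus stood above all others, but they shared only 1250 of the 3466 bp called in either (Jaccard index 0.361). The excess of replicate 2 rested on weak peaks: at a −log10 q of at least 20 the BxPC3 libraries covered 1115 and 1741 bp, and with 27776 peaks from each list 1600 and 662 bp.

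The strongest trefoil peak was chr21:43777102-43778216 in BxPC3 replicate 1, with a fold of 12.01 over local background and a −log10 q of 28.5, both the peak caller's own values as deposited by the authors. In BxPC3 replicate 2 it was chr21:43777779-43778440, with a fold of 13.0 and a −log10 q of 39.2. Their summits lay 13 bp apart. Within their own lists these peaks stood at percentiles 35.8 and 45.9 by −log10 q, so most BxPC3 peaks were stronger. A further region at chr21:43786343-43787421 was also called in both BxPC3 libraries, with folds of 9.26 in replicate 1 and 9.39 in replicate 2. The remaining regions, at chr21:43758270-43758643 and chr21:43788030-43788703, were called in BxPC3 replicate 2 alone.

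Around the trefoil genes the other lines were empty over a longer stretch. The gap between the nearest peaks on either side was 261 and 278 kb in Panc327 replicates 1 and 2, and 228 kb in both SUIT2 replicates. In the 1 Mb to the left of the window BxPC3 had the fewest peaks, 6 and 7, beside 25 and 26 for Panc327 and 26 and 28 for SUIT2. In the 1 Mb to the right the numbers were 29 and 32 for BxPC3, 45 and 43 for Panc327 and 20 and 21 for SUIT2. The median local background at peaks in the trefoil window or within 1 Mb, which the peak caller takes from the input, was 1.00 to 1.08 times the level over the whole genome.

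The AGR2 window was marked in BxPC3 and, in part, in Panc327. BxPC3 had 4 peaks covering 4737 bp in replicate 1 and 6 peaks covering 6120 bp in replicate 2. Panc327 had 1 peak of 560 bp in replicate 1 and 2 peaks covering 2848 bp in replicate 2, and SUIT2 had 0 in both libraries. Both BxPC3 libraries lay above both Panc327 libraries, with means of 5429 ± 978 bp in BxPC3 and 1704 ± 1618 bp in Panc327 (SD, n = 2).

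The main BxPC3 peak at AGR2 had the highest −log10 q of the BxPC3 peaks in the windows. It spanned chr7:16842593-16845871 in replicate 1, with a fold of 37.8 and a −log10 q of 205, and chr7:16842700-16845979 in replicate 2, with a fold of 32.8 and a −log10 q of 264. It stood at percentile 88.2 of the replicate 1 list and 88.1 of the replicate 2 list, and the summits lay 73 bp apart. The pile-up at the summit, recovered from the deposited values, was 164 over a local background of 3.37 in replicate 1 and 229 over 6 in replicate 2, on the scale of the peak caller. Panc327 replicate 2 had a peak over the same place, chr7:16843778-16845622, with a fold of 11.9 and a −log10 q of 60.2, whose summit lay 156 and 83 bp from those of BxPC3 replicates 1 and 2. Panc327 replicate 1 had no peak there.

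A different region of the AGR2 window was shared by the Panc327 libraries. The region chr7:16857481-16858511 was called in both of them and in no other library, with a fold of 22.1 in replicate 1 and 12.4 in replicate 2. Its −log10 q was 90.5 and 73.4, at percentiles 53.3 and 69.5 of the lists, and by the weaker of both values it ranked 204 among 3415 Panc327-only regions. The nearest BxPC3-only region, chr7:16856670-16857156, ended 324 bp to its left, with folds of 8.84 in BxPC3 replicate 1 and 7.70 in BxPC3 replicate 2. The BxPC3 regions further left, chr7:16851392-16852876 and chr7:16854367-16854689, were also absent from Panc327.

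AGR2 sits between TSPAN13 and AGR3 in a part of chromosome 7 where the Panc327 background was raised. Peaks in the window or within 1 Mb of it had a median local background of 2.11 and 2.54 in the Panc327 libraries, as a ratio to the genome-wide level. The same ratio was 1.49 and 1.35 for BxPC3 and 1.17 and 1.16 for SUIT2. Its median over sampled peaks of the whole genome was 1.26 and 1.33 for Panc327, 1.26 and 1.13 for BxPC3, and 1.09 and 1.00 for SUIT2. The background comes from the input library, and its part in the AGR2 calls was not tested. The Panc327 libraries differed in the flanks too: to the right of the window, 1 Mb held 9 peaks in replicate 1 and 42 in replicate 2, beside 45 and 56 for BxPC3 and 19 and 22 for SUIT2.

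**Figure D2:**
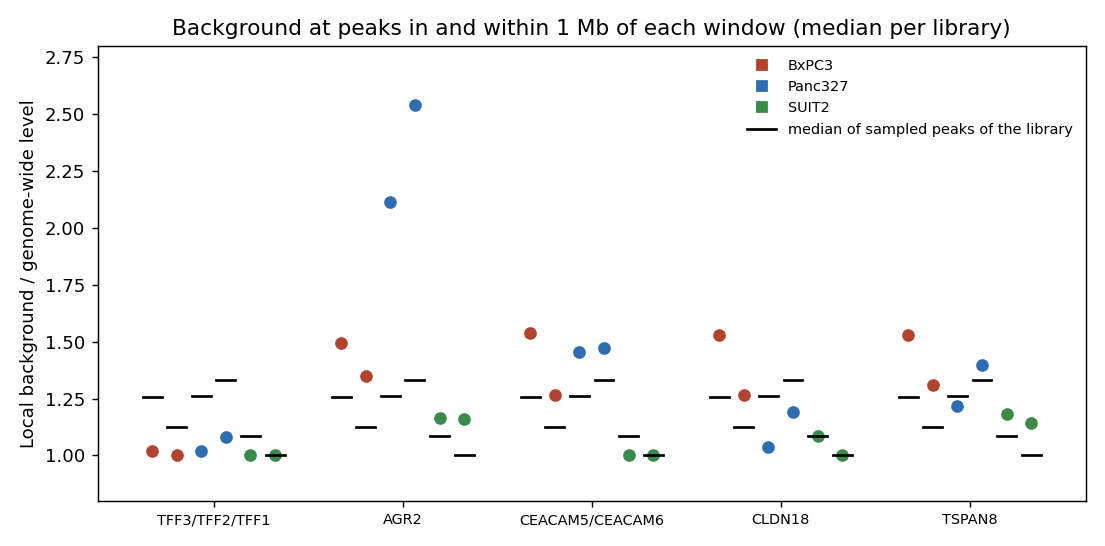
Median local background at peaks in and within 1 Mb of each window, as a ratio to the genome-wide level of the library, with 1 point per library and a black line for the median over sampled peaks of that library. The Panc327 points at AGR2, 2.11 and 2.54, stand above all others.

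The CEACAM5 and CEACAM6 window carried the densest BxPC3 marking, and no peak was assigned to either gene singly. BxPC3 replicate 1 had 10 peaks covering 13097 bp and replicate 2 had 9 peaks covering 16372 bp, a mean of 14735 ± 2316 bp (SD, n = 2). That was 15.4 and 19.3% of the window. The 4 Panc327 and SUIT2 libraries had 0 peaks, so the lines did not overlap. Of the tiles of that width, 1.24% in replicate 1 and 0.835% in replicate 2 were covered at least as much. This window held 64.9 and 62.0% of all the bases that the BxPC3 libraries covered in the 5 windows.

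The strongest CEACAM peak was chr19:42278719-42280352 in BxPC3 replicate 1, with a fold of 28.9 and a −log10 q of 114, and chr19:42278704-42280217 in replicate 2, with a fold of 38.8 and a −log10 q of 169. The summits lay 32 bp apart. Among the 7631 regions of BxPC3 alone it ranked 162 by the weaker of both −log10 q values. The widest was chr19:42237321-42241161, 3841 bp, which was 1 peak in replicate 2 and 2 peaks in replicate 1 and ranked 88 by width among those regions. Another BxPC3-only region, chr19:42258222-42260544, had a fold of 6.54 in replicate 1 and 17.7 in replicate 2. Its pile-up was 57.9 over a local background of 8 in replicate 1 and 87.3 over 4 in replicate 2, so the folds differed through both terms. The other 4 BxPC3-only regions there, chr19:42243058-42246012, chr19:42260959-42262907, chr19:42277197-42278352 and chr19:42282506-42284474, had folds between 9.69 and 22.3 over both libraries. The narrow region chr19:42210659-42211071 lay apart, near the left edge, and was called with folds of 15.8 in replicate 1 and 16.0 in replicate 2. The remaining region, chr19:42212696-42213164, was called in BxPC3 replicate 2 alone, with a fold of 8.61 and a −log10 q of 19.1.

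The peak-free stretch around these genes was long in the other lines, 356 and 355 kb in Panc327 and 417 kb in both SUIT2 libraries. In the 1 Mb on each side peak numbers were close, with 31 and 30 on the left for BxPC3, 33 and 29 for Panc327 and 40 and 39 for SUIT2, and 30 to 39 on the right. The background ratio was 1.54 and 1.27 for BxPC3, 1.45 and 1.47 for Panc327 and 1.00 for both SUIT2 libraries. CEACAM5 and CEACAM6 belong to a family of related genes, and how reads that match several members were placed is not given in the sources used here. The neighbours CEACAM7 and CEACAM3 are of the same family.

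SUIT2 marked the TSPAN8 window alone. SUIT2 had 7 peaks covering 19250 bp in replicate 1 and 9 peaks covering 20894 bp in replicate 2, or 38.5 and 41.8% of the window. BxPC3 covered 733 and 786 bp with 1 peak in each library, and Panc327 covered 0 bp in replicate 1 and 322 bp in replicate 2. Both SUIT2 libraries stood far above the other 4, with a mean of 20072 ± 1162 bp in SUIT2 and 760 ± 37.5 bp in BxPC3 (SD, n = 2). Of the tiles of that width, 0.345% in SUIT2 replicate 1 and 0.297% in SUIT2 replicate 2 were covered at least as much.

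**Figure D3:**
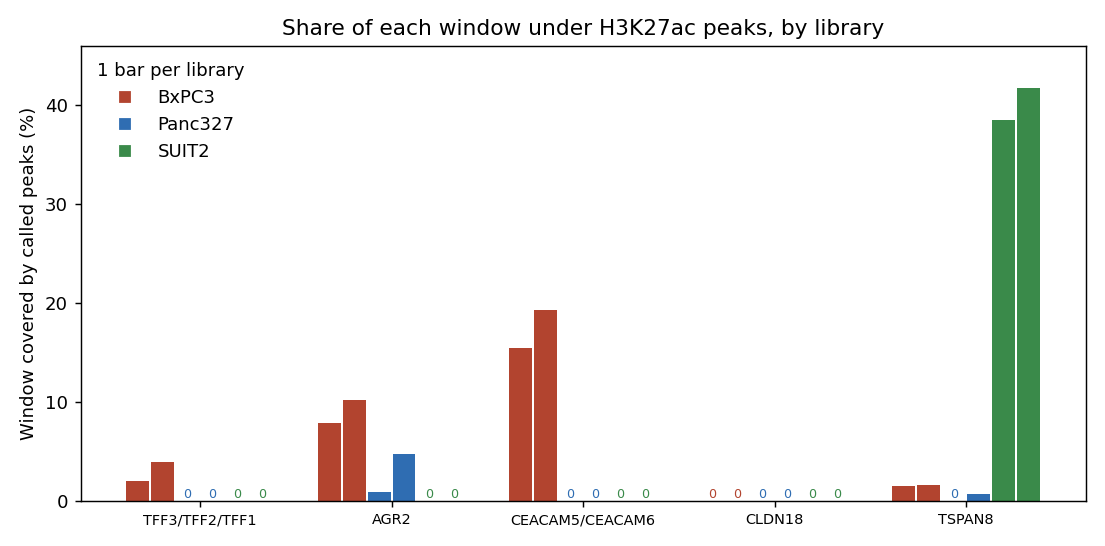
Share of each window covered by called H3K27ac peaks, in percent, with 1 bar per library coloured by line and a 0 where the library had no peak. SUIT2 covers 38.5 and 41.8% of the TSPAN8 window, and BxPC3 covers 15.4 and 19.3% of the CEACAM5/CEACAM6 window.

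Most of the SUIT2 marking was a single domain. The peak ran from 71545170 to 71560536 on chromosome 12 in replicate 1, with a width of 15367 bp, a fold of 118 and a −log10 q of 1215. In replicate 2 it ran from 71545184 to 71560542, with a width of 15359 bp, a fold of 127 and a −log10 q of 1321. The summits lay 138 bp apart, and the peak reached just past the right edge of the window. The recovered pile-up was 707 reads over a local background of 4.998 in replicate 1 and 755 over 4.967 in replicate 2. By −log10 q it ranked 306 of 29983 peaks in replicate 1 and 263 of 31421 in replicate 2, at percentiles 99.0 and 99.2.

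Among the 7662 regions of SUIT2 alone, the TSPAN8 domain ranked 6 by width and, in each SUIT2 library, 3 by −log10 q and 2 by fold. The median SUIT2-only region was 1150 bp wide, with a median fold of 9.79 in replicate 1 and 10.2 in replicate 2. The background ratio near TSPAN8 was 1.18 and 1.14 in the SUIT2 libraries, against 1.09 and 1.00 over sampled peaks of those lists. The TSPAN8 window had 4 further SUIT2-only regions, all to the left of the domain and all weaker. They spanned chr12:71530044-71530511, chr12:71532485-71533173, chr12:71534687-71536979 and chr12:71537842-71540134, and the smaller SUIT2 peaks in the window had folds of 3.83 to 8.67 over both libraries.

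BxPC3 and Panc327 replicate 2 marked another place in the TSPAN8 window. The peak was chr12:71511489-71512221 in BxPC3 replicate 1, with a fold of 21.9, and chr12:71511452-71512237 in BxPC3 replicate 2, with a fold of 34.3. Panc327 replicate 2 had a narrower peak inside it with a fold of 7.52, and its summit lay 5 and 13 bp from the BxPC3 summits. That peak was weak, with a −log10 q of 16.9 at percentile 16.6 of its list, and it is lost at a −log10 q of at least 20. No SUIT2 library had a peak there, and the SUIT2 domain had its summit 39332 to 39483 bp to the right. The genes next to TSPAN8 are PTPRR and LGR5, and without an hg19 annotation the peak was not assigned to any of them.

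**Figure D4:**
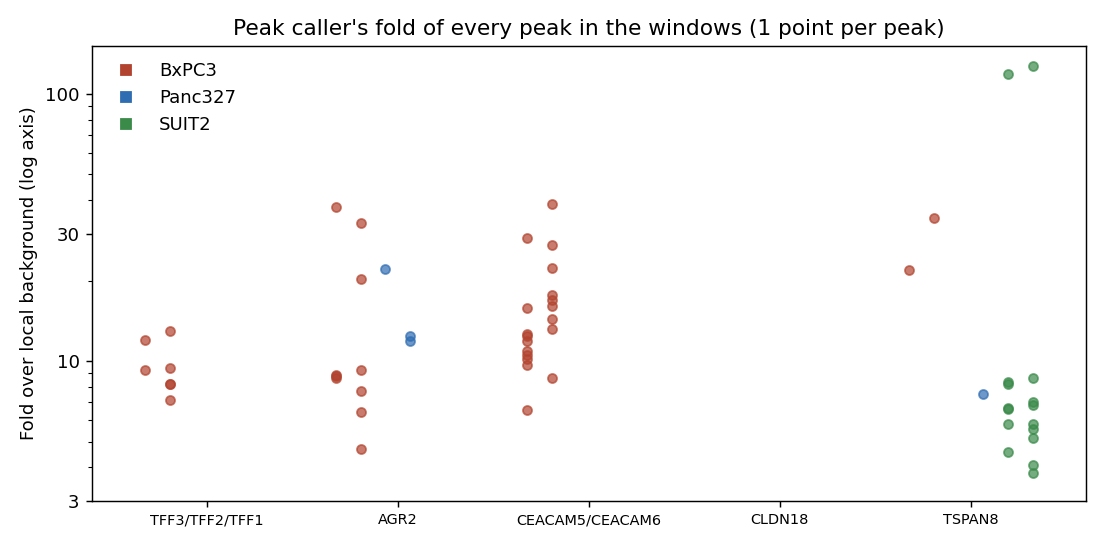
The peak caller's fold over local background for every peak in the windows, on a log axis, with 1 point per peak and a column of points per library, coloured by line. The SUIT2 domain at TSPAN8 reaches 118 and 127, and the BxPC3 peaks at the trefoil factors stay at or under 13.0. Folds are comparable within a library.

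CLDN18 carried no called H3K27ac in any line. The peak-free stretch around it ran for 1085 kb in both BxPC3 libraries, 1251 and 1100 kb in Panc327 and 1099 kb in both SUIT2 libraries. Of tiles as wide as the window, which were laid without regard to genes, 59.8% held no peak in any library. The nearest peaks lay to the right, 40.3 and 40.7 kb from the window in BxPC3, 73.3 and 73.2 kb in Panc327 and 72.4 and 72.5 kb in SUIT2, on the side of DZIP1L. Peaks weaker than a −log10 p of 10 are not in the lists, so weak acetylation was not detectable.

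The trefoil and CEACAM windows shared the same calls in all 6 libraries, peaks in BxPC3 and none elsewhere. That pattern was found in 4.78% of tiles as wide as the trefoil window and 4.84% of tiles as wide as the CEACAM window. AGR2 had the same call as either of them in 4 of 6 libraries, and TSPAN8 in 3 of 6. CLDN18 and TSPAN8 were least alike, with the same call in 1 of 6. The AGR2 pattern occurred in 1.71% of tiles as wide as its window and the TSPAN8 pattern in 1.26%.

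Over the 5 windows, libraries of a line overlapped more than libraries of different lines. The Jaccard index, bases called in both over bases called in either, was 0.708 for the BxPC3 pair, 0.166 for the Panc327 pair and 0.780 for the SUIT2 pair. Between lines it was 0 in 10 of 12 pairs, and the other two were Panc327 replicate 2 with BxPC3 replicates 1 and 2, at 0.102 and 0.0791. Replicate pairs averaged 0.551 and pairs of different lines 0.0151, a difference of 0.536 (one-sided exact permutation test over 15 splits into pairs, p = 0.0667, the smallest this design allows). No other split gave more than 0.215. The windows were chosen with earlier results of these data known, and the p could not fall lower, so no conclusion is drawn from it. A comparison of 2 libraries with 2 cannot go below an exact permutation p of 0.333, so no pair of lines was tested.

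The Panc327 libraries did not divide evenly. In the windows, 2 regions were held by both BxPC3 libraries, Panc327 replicate 2 and no other library, at AGR2 and at TSPAN8, and 0 by both BxPC3 libraries with Panc327 replicate 1 alone. Over the genome the corresponding counts were 1695 with replicate 2 and 348 with replicate 1. Without Panc327 replicate 1, Panc327 had 3 marked regions in the windows in place of 1.

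Whole lists differed as well. BxPC3 had 34113 and 38335 peaks covering 48.7 and 54.6 Mb. Panc327 had 27776 and 29139 peaks covering 34.1 and 46.3 Mb. SUIT2 had 29983 and 31421 peaks covering 60.1 and 63.3 Mb. SUIT2 covered the most bases and had none at 4 of the 5 windows. Both SUIT2 libraries held a peak in only 26.5 to 35.2% of tiles of these widths, so its number of marked windows lay near that share. Depth is not stated in the lists, and a call that is missing from a shallower library may be a weak peak. The lines' identity was not checked against other marker genes, and other classical and basal-like genes were not analysed here, since both need gene positions on hg19.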

How the data were processed

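ChIP-seq for H3K27ac was processed by the authors with bcl2fastq 1.8.4, Bowtie 1.1.1 and MACS2 on hg19, per the submitters' processing notes; MACS2 settings are not given in the sources used here. A separate narrowPeak list was deposited for every H3K27ac library, so peaks were called per library. The deposited fold (a ratio of pile-up to local background), the −log10 p-values and −log10 q-values and the summit of each peak are the authors' values. The deposited score column, a whole-number form of the −log10 p, was not used. Chromosomes 1 to 22 and X were kept, and no more than 3 peaks per list lay elsewhere; no lists were identical.

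Peaks of all lists sharing at least 1 bp were merged into regions. Marking in a line required a peak in each of its libraries. Tiles as wide as each window, laid from the start of each chromosome to its last peak, gave the background share. Pile-up and local background were solved from fold and −log10 p, with 1 added to both terms of the ratio and a Poisson upper tail for p; all sampled peaks were solved. In Panc327 and SUIT2, where several solutions were possible, whole pile-ups were preferred; the BxPC3 pile-ups are scaled by the peak caller, and there only peaks with 1 solution entered the background medians. The genome-wide level is the most common background of a list. It is a floor, so losses of DNA are not visible. Region classes and this solution were tested on simulated data. Promoters and neighbouring genes came from RefSeq on GRCh38.p14; no coordinates were converted.

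All 8 members are named, and for windows with peaks each library's strongest peak by −log10 q and the regions of 1 line; CLDN18 had none. Members and lists were chosen with earlier results of these data known, and other regions named were picked after their values were seen. Biopython 1.88, matplotlib 3.10.9, numpy 2.4.6, scipy 1.17.1 and pandas 2.3.3 were run in Python 3.11.15. Stricter peaks, equal list lengths, 50% overlap, wider windows and leaving out each library were tried as alternatives.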

Additional observations from a re-analysis of the deposited data

How the results depend on the processing

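Over 13 counts of windows or regions and 10 alternatives, 119 of 130 values stayed within 1.5 times the reported count. Leaving out a library of 1 line cannot change what another line marks, so many of the 130 were fixed in advance. Their number is therefore no measure of stability. The SUIT2 regions of the TSPAN8 window moved most: 5 marked, all SUIT2-only, became 1 under a −log10 q minimum of 20, and 3 either with 27776 peaks from each list or with an overlap of at least 50%. With windows widened by 20000 bp, Panc327 had 2 marked regions in place of 1. Leaving out each library in turn gave 1 to 2 windows marked in Panc327, 1 to 3 regions marked in Panc327 and 5 to 9 regions marked in SUIT2 or SUIT2-only; a line reduced to 1 library is marked by that library alone, which raises counts. Regions marked in BxPC3 ranged from 15 to 21 and BxPC3-only regions from 13 to 19. The within-line excess of the Jaccard index was 0.414 to 0.744 when a library was left out. BxPC3 marked 4 windows and SUIT2 1 in all 10 alternatives. Only stricter peaks, equal list lengths and an overlap of at least 50% could have lowered these counts. No paired analysis was possible because the comparisons come from overlaps of peak lists, with no fit across samples. Of 502 values of single libraries in a window, 13 moved by more than the spread between replicates, all of them covered bases in the trefoil, AGR2 and TSPAN8 windows. Leaving out a library cannot change the values of the others, so many of the 502 were fixed in advance. The low number that moved is therefore no measure of stability. Depth was not varied, and a missing call does not show that acetylation is absent.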
